A study of Homo sapiens with 3 samples.

Results

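The aminoacyl-tRNA synthetases are the enzymes that attach each amino acid to its tRNA. The genes examined were the 36 synthetase genes found by symbol in the deposited table of A375 melanoma cells, among 58037 genes in all. Of these, 20 encode cytosolic enzymes or their subunits and 16, with symbols ending in 2, encode mitochondrial enzymes. The symbols are the older ones, and newer names of the cytosolic genes carry a final 1. GARS and KARS, for glycine and lysine, serve both compartments and were kept with the cytosolic genes. After a filter on low values, 35 of the 36 remained, namely all 20 cytosolic genes and 15 of the 16 mitochondrial genes.

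A375 is an established human melanoma cell line. The cells were kept for 24 h in serum-free DMEM (control), in medium conditioned by young adipocytes (YA secretome) or in medium conditioned by old adipocytes (OA secretome), and poly(A) RNA was sequenced. The adipocytes were human subcutaneous cells differentiated in culture from preadipocytes and conditioned serum-free DMEM, so all 3 groups lacked serum, and no number of donors behind each secretome was given in the sources used here. There was 1 library per group, all from 1 cell line, and no difference below could be checked against a replicate. The comparison of YA and OA asks how the transcriptome of the melanoma cells differs between the young and the old secretome. In the study's donor list the old donors were all male and the young donors mostly female. Cells of young donors were mostly purchased chest cells, and those of old donors came mostly from a biobank and from several sites. Age therefore cannot be told apart from sex, site, source or secretome batch here.

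A synthetase recognises its own amino acid and the matching tRNAs, and translation cannot proceed without any of them. The enzymes fall into class I and class II by the fold of their catalytic domain. In animal cells several cytosolic members are held together by scaffold proteins in a multisynthetase complex. Mitochondria translate their own few messages with a separate set of synthetases, which are encoded in the nucleus and imported. Many cytosolic synthetase genes are known targets of ATF4, the transcription factor made when the kinases of eIF2 are active, for example when an uncharged tRNA activates GCN2 (EIF2AK4). ATF4 binds with C/EBP partners to a composite element spelled TGATGNAA.

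This element was looked for on both strands in the RefSeq promoters of build GRCh38.p14, each running from 250 bases before to 50 bases after a transcription start. Promoters were found for 30 of the 36 genes, in 39 windows. AARS2, DARS, LARS, VARS, VARS2 and YARS had none in the table. The element was found in 7 of the 16 cytosolic genes with a promoter (43.8%) and in 1 of the 14 mitochondrial genes (7.14%), beside 4.46% of 27305 genes and 3.62% of 35116 promoter windows overall. The cAMP response element, TGACGTCA, which cannot match the same 8 bases as the first motif, was found in 0 of the 30 genes, beside 2.25% of all genes. The matches below are shown because they let the promoters be read beside the expression values that follow. Each is a stretch of 30 bases in the direction of the gene, 5′ to 3′, with the match in capitals. TTGCATCA and TTTCATCA are the element read on the other strand.
AARS, chr16:70289675-70289704, minus strand, match beginning at -187 from the start: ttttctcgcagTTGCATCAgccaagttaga
CARS, chr11:3057407-3057436, minus strand, at -2: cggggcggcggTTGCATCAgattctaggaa
GARS, chr7:30594834-30594863, plus strand, at -33: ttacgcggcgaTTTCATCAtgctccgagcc
IARS, chr9:92293692-92293721, minus strand, at -13: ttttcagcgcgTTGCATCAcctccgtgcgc
MARS, chr12:57488053-57488082, plus strand, at -4: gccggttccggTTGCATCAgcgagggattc
NARS, chr18:57621804-57621833, minus strand, at 15 past the start: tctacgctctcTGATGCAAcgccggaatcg
TARS, chr5:33440956-33440985, plus strand, at 3 past the start: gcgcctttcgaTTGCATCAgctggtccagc
YARS2, chr12:32756076-32756105, minus strand, at -197: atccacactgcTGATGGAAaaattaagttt
ASNS, a known ATF4 target shown for comparison, chr7:97872458-97872487, minus strand, at -68: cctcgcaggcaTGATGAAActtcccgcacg
Of the 7 cytosolic genes, 6 held the same 8 letters, TTGCATCA or its reverse complement TGATGCAA, and GARS held TTTCATCA. In 5 of the 7 genes the match began within 15 bases of the start. A match is a description of the letters and does not show that the site was bound.

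The control, YA and OA libraries held 21448195, 21306558 and 18089008 counts over 27468, 26954 and 25234 genes with a count. Groups of 3 values below are in this order. Values are normalised counts, in which raw counts were divided by a size factor of 1.06, 1.06 or 0.891, and a fold change is a ratio of these after adding 1 to each. Intervals are 95% intervals for counting error only. Of 9 melanocyte lineage markers, 3 passed the filter, and the raw counts of all 9 summed to 2564, 1882 and 1786. SOX10 was at 0 and TYR and DCT at 2 or fewer raw counts in every library. MITF was detected at 1221, 764 and 881, S100B at 843, 591 and 550, and PAX3 at 466, 495 and 324. SOX10 shares 2.4% of its exon bases with POLR2F on the opposite strand, and whether its counts of 0 reflect absence was not tested. Of 9 adipocyte markers, ADIPOQ and LEP were at 0 or 1 raw count, and FABP4 was at 16, 15 and 2. All 5 that passed the filter exceeded control by 1.2-fold or more in YA, beside 17.4% of all genes. In OA, 2 were higher and 1 lower, beside 21.1% and 21.5%. PPARG had 1608, 1964 and 1530 raw counts, LPL 353, 583 and 30, and PLIN4 284, 579 and 321. LIPE had 79, 153 and 67, and CIDEC 6, 31 and 36. The raw counts of the list summed to 2349, 3330 and 1988. Of 10 fibroblast markers, DPT, COL1A2 and COL3A1 were at 2 or fewer raw counts, FAP and THY1 at 5 or fewer, and the list summed to 374, 535 and 276. Of the 5 past the filter, 3 were higher and 1 lower in YA by 1.2-fold or more, beside 17.4% and 16.4% of all genes. In raw counts DCN stood at 13, 138 and 24, COL1A1 at 75, 117 and 84, and LUM at 66, 101 and 58. FBLN1 stood at 136, 155 and 49, and PDGFRA at 76, 20 and 51. The part of these markers in the results was not tested.

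Synthetase transcripts took up a larger share of the library in both secretomes than in control. Of every library's counts, the 36 genes held 0.576% in control, with a Wilson interval of 0.573 to 0.579. It was 0.710% with YA (0.706 to 0.713) and 0.666% with OA (0.663 to 0.670). The difference lay mainly in the cytosolic genes, at 0.496%, 0.632% and 0.582%. The mitochondrial genes held 0.0795%, 0.0782% and 0.0842%, and the intervals of control and YA overlapped. The interval of OA (0.0829 to 0.0856) lay above that of control (0.0783 to 0.0807).

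Levels can be compared between genes only per length, as normalised counts per kb of exon. In control, FARSA, the catalytic subunit of the cytosolic phenylalanine enzyme, had the highest level of the 36, at 2949 per kb. It was followed by EPRS (glutamate and proline) at 1772, KARS at 1625, RARS (arginine) at 1507 and AARS (alanine) at 1452 per kb. CARS, for cysteine, was the lowest of the cytosolic genes at 148 per kb. FARSB, the other subunit of the phenylalanine enzyme, stood at 301 per kb, well below its partner. Before division by length FARSB was below CARS, at 1015 against 1480 normalised counts. Among the mitochondrial genes IARS2, for isoleucine, had 1324 per kb in control, above its cytosolic counterpart IARS at 904. Without division by length IARS2 was below IARS, at 5514 against 6688 normalised counts. The next mitochondrial gene per kb was TARS2 (threonine) at 356, and FARS2 (phenylalanine) was the lowest of those past the filter at 32.2 per kb. In YA, FARSA stood at 2753 per kb, AARS at 2698, EPRS at 2290 and GARS at 2246 per kb.

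**Figure D1:**
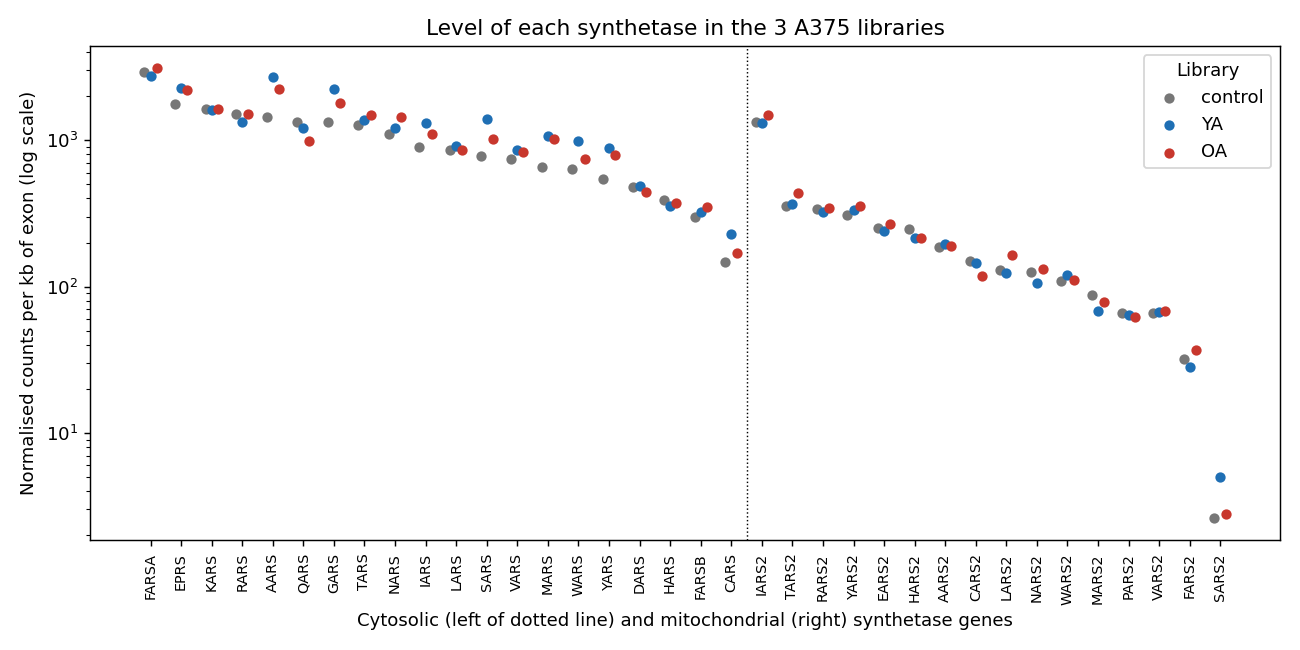
Level of each of the 36 synthetase genes in the 3 A375 libraries, as normalised counts per kb of exon on a log axis, with 1 point per library and genes ordered by their control level within each compartment. FARSA is the highest in control at 2949 per kb and SARS2 the lowest at 2.63 per kb, and IARS2 stands at 1324 per kb among mitochondrial genes that are otherwise at 356 per kb or lower.

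The comparison of YA with control asks what the young adipocyte secretome did to these genes. Past a threshold of 1.2-fold, 9 of the 20 cytosolic genes were higher in YA and 0 were lower. Over all 14413 genes tested, 17.4% were higher by this threshold and 16.4% were lower. The counting intervals of all 9 lay wholly above 1.2-fold, beside 869 of the 14413 genes. At 1.5-fold, 7 cytosolic genes were higher, beside 6.25% of all genes. The median log2 fold change of the cytosolic genes was 0.17, beside -0.02 over all genes, and their summed counts were 1.27-fold higher (1.26 to 1.28).

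AARS, which charges alanine, changed most, with 6529, 12137 and 10073 normalised counts. It was 1.86-fold higher in YA than in control (interval 1.805 to 1.91). SARS, for serine, stood at 2996, 5373 and 3944 and was 1.79-fold higher in YA (1.72 to 1.87). GARS, the glycine enzyme of both compartments, stood at 5509, 9324 and 7508 and was 1.69-fold higher (1.64 to 1.75). For each of these 3 genes the YA library was the highest and OA lay between it and control.

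MARS, the methionine enzyme that also supplies translation initiation, had 4583, 7562 and 7215 normalised counts. It was 1.65-fold higher in YA (1.59 to 1.71), and the YA and OA libraries lay close together. MARS shares 355 exon bases on the opposite strand with DDIT3, which had at most 156 raw counts in a library. YARS, for tyrosine, stood at 4432, 7251 and 6552 and was 1.64-fold higher in YA (1.58 to 1.70). CARS stood at 1480, 2307 and 1702 and was 1.56-fold higher in YA (1.46 to 1.66).

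WARS, for tryptophan, is also known to be induced by interferon. It had 4041, 6293 and 4734 normalised counts and was 1.56-fold higher in YA (1.498 to 1.62). Of 16 interferon-stimulated genes tested, 1 was higher and 3 were lower in YA at 1.2-fold, and 7 were higher and 2 lower in OA, where WARS stood at 1.17-fold. Among all genes, 17.4% were higher and 16.4% lower in YA, and 21.1% were higher and 21.5% lower in OA. A part of interferon in the change of WARS was not tested. IRF1, an interferon-induced transcription factor, had 309, 443 and 438 raw counts, 1.44-fold higher in YA (1.24 to 1.67) and 1.69-fold in OA, while the interferon-induced GTPase GBP2 had 862, 556 and 292. IARS stood at 6688, 9645 and 8152, 1.44-fold higher in YA. EPRS, a fusion of the glutamate and proline enzymes, stood at 9660, 12478 and 11957, 1.29-fold higher in YA.

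The other 11 cytosolic genes stayed within 1.2-fold of control in YA. VARS (valine) had 4540, 5179 and 5050 normalised counts, TARS (threonine) 7220, 7900 and 8497, and LARS (leucine) 6910, 7420 and 6948. The genes furthest down in YA were RARS, HARS, QARS and FARSA. RARS, for arginine, stood at 5156, 4556 and 5159, 0.884-fold of control in YA (0.850 to 0.919). HARS, for histidine, stood at 3065, 2784 and 2912, 0.908-fold of control (0.864 to 0.955). QARS, for glutamine, was at 0.911-fold (0.880 to 0.944) and FARSA, at 7181, 6705 and 7542, was at 0.934-fold (0.904 to 0.964). KARS did not share the change of GARS, although both enzymes work in both compartments. It had 6607, 6514 and 6664 normalised counts and was at 0.986-fold of control in YA (0.954 to 1.02).

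The comparison of OA with control asks the same of the old adipocyte secretome, and it shares the control library with the comparison above. Of the 20 cytosolic genes, 8 were past 1.2-fold upward in OA, beside 21.1% of all genes, and 1 downward, beside 21.5%. At 1.5-fold only AARS and MARS, 2 of the 20, were higher, beside 7.56% of all genes. The median log2 fold change was 0.23, beside 0.01 over all genes, and the summed counts were 1.18-fold higher (1.17 to 1.19). For 7 of the 8 the interval lay wholly above 1.2-fold, beside 1303 of the 14413 genes, and IARS, at 1.22-fold, was the exception.

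MARS was 1.57-fold higher in OA (1.52 to 1.63) and AARS 1.54-fold (1.495 to 1.59). YARS followed at 1.48-fold (1.42 to 1.54), GARS at 1.36-fold (1.32 to 1.41) and SARS at 1.32-fold (1.255 to 1.38). EPRS was 1.24-fold higher. NARS, for asparagine, was past 1.2-fold in OA but not in YA, with 4481, 4984 and 5928 normalised counts, or 1.32-fold of control in OA. CARS and WARS were past 1.2-fold in YA only, and in OA stood at 1.15-fold (1.07 to 1.23) and 1.17-fold (1.12 to 1.22). Correcting for GC content and transcript length put CARS past 1.2-fold in OA as well, at 0.26 on the log2 scale. QARS was the cytosolic gene that was lower in OA, with 6275, 5719 and 4660 normalised counts, or 0.743-fold of control (0.714 to 0.772).

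In all, 7 cytosolic genes (AARS, EPRS, GARS, IARS, MARS, SARS and YARS) were past 1.2-fold in both secretomes, and 10 were past it in neither. Over all genes, 1115 of 14413 were past it in both. In 11 of the 20 the order was YA, then OA, then control, an order shown by 1785 of the 14413. The YA and OA changes lay on opposite sides of control for 4 of the 20, DARS, FARSA, KARS and RARS, beside 5590 of the 14413. DARS, for aspartate, stood at 1917, 1963 and 1788 normalised counts, 1.02-fold in YA (0.963 to 1.09) and 0.933-fold in OA (0.873 to 0.997). FARSA was 1.05-fold of control in OA (1.02 to 1.085), its partner FARSB had 1015, 1090 and 1187 normalised counts, KARS was 1.01-fold in OA (0.974 to 1.04) and RARS was 1.00-fold (0.962 to 1.04). None of these 4 genes moved by 1.2-fold in either secretome. Correcting for GC content and transcript length placed KARS above control in YA, at 0.05 on the log2 scale, and FARSA and RARS below control in OA, at -0.01 and -0.07, so DARS alone kept its opposite signs.

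YA was then set against OA directly. Here 6 of the 20 cytosolic genes were higher in YA by 1.2-fold or more, beside 23.0% of all genes, and 0 were lower by as much, beside 21.5%. The median log2 fold change was 0.08, and the summed counts were 1.08-fold higher in YA (1.07 to 1.085). SARS was 1.36-fold higher in YA than in OA (1.31 to 1.42), CARS 1.36-fold (1.27 to 1.45) and WARS 1.33-fold (1.28 to 1.38). GARS was at 1.24-fold (1.204 to 1.28), QARS at 1.23-fold (1.18 to 1.28) and AARS at 1.205-fold (1.17 to 1.24). Correcting for GC content and transcript length took AARS below 1.2-fold here, to 0.20 on the log2 scale. MARS differed little between the secretomes, at 1.05-fold (1.01 to 1.08). NARS was the cytosolic gene furthest below OA, at 0.841-fold.

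Mitochondrial synthetases changed little. In YA, 0 of the 15 tested were at least 1.2-fold higher and 1 was lower, with a median log2 fold change of -0.06 and summed counts at 0.980-fold of control (0.959 to 1.00). In OA, 2 were higher (LARS2 and TARS2) and 1 was lower (CARS2), with a median of 0.04 and summed counts at 1.06-fold (1.04 to 1.09). In YA against OA, 1 was higher (CARS2) and 3 were lower (LARS2, FARS2 and NARS2). In every comparison and direction the share of mitochondrial genes past 1.2-fold was below that of all genes, and none of the 15 had an interval against control wholly beyond 1.2-fold.

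MARS2, the mitochondrial methionine enzyme, had 264, 207 and 238 normalised counts and was the gene past 1.2-fold in YA, at 0.785-fold of control (0.654 to 0.940). LARS2, for leucine, stood at 883, 850 and 1121 normalised counts, 0.962-fold in YA (0.877 to 1.06) and 1.27-fold in OA (1.16 to 1.39). It was thus high in OA alone, and YA was 0.758-fold of OA (0.692 to 0.830), an interval wholly beyond 1.2-fold. CARS2, for cysteine, stood at 1565, 1506 and 1230, low in OA alone at 0.786-fold of control (0.728 to 0.849). Its neighbour ING1, which shares 326 exon bases with it on the opposite strand, had 1421, 1417 and 875 raw counts and was at 0.734-fold in OA, and reads of the pair cannot be told apart without strand. FARS2 had only 156, 136 and 180 normalised counts, 0.876-fold in YA (0.695 to 1.10) and 1.15-fold in OA (0.924 to 1.445), so no difference from control was detectable at this depth. TARS2 stood at 1451, 1507 and 1788, 1.23-fold higher in OA.

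HARS2, which lies head to head with HARS and shares 437 exon bases with it, had 928, 809 and 802 normalised counts. It was at 0.872-fold of control in YA (0.794 to 0.956) and 0.864-fold in OA (0.783 to 0.952). The YA and OA changes lay on opposite sides of control for 6 of the 15, EARS2 (glutamate), FARS2, IARS2, LARS2, NARS2 (asparagine) and RARS2 (arginine). This was close to the share of all genes, of which 5590 of 14413 lay on opposite sides. Each of the 6 was lower in YA and higher in OA. Under the same correction the log2 changes of LARS2, IARS2 and RARS2 in YA became 0.02, 0.03 and 0.02, no longer below control. NARS2 stood at 395, 334 and 418 normalised counts, 0.845-fold in YA (0.731 to 0.976) and 1.06-fold in OA (0.917 to 1.22). IARS2 stood at 5514, 5436 and 6181, 0.986-fold in YA (0.951 to 1.02) and 1.12-fold in OA (1.08 to 1.16). EARS2 had 1436, 1379 and 1528 normalised counts, 0.960-fold in YA (0.893 to 1.03) and 1.06-fold in OA (0.988 to 1.145). RARS2 had 863, 829 and 881, and both of its intervals held 1, at 0.960-fold in YA (0.874 to 1.055) and 1.02-fold in OA (0.927 to 1.12).

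The remaining mitochondrial genes stayed within 1.2-fold of control. AARS2 (alanine) had 808, 836 and 819 normalised counts, PARS2 (proline) 156, 149 and 145, and VARS2 (valine) 557, 563 and 573. WARS2 (tryptophan) had 419, 461 and 428, and YARS2 (tyrosine) 662, 722 and 760. SARS2, the mitochondrial serine enzyme, did not pass the filter, with 9, 17 and 8 raw counts. It shares 46.2% of its exon bases with a gene on the same strand, AC011455.2, that had 0 counts in each library, so its own level is uncertain. VARS2 shares 21.99% of its exon bases with GTF2H4 on the same strand.

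Cytosolic and mitochondrial partners for the same amino acid were set side by side in 16 pairs, with EPRS, FARSA and FARSB each taken with every partner for its amino acids. In YA against control, the log2 fold change of the cytosolic gene lay above that of its partner in 15 of 16 pairs, and by at least 1.2-fold in 10. In some of the 15, such as HARS and HARS2, both genes were below control. The median difference in log2 fold change was 0.41, with a range from -0.12 to 1.07. MARS and MARS2 lay furthest apart, at 1.07, followed by AARS and AARS2 at 0.84 and CARS and CARS2 at 0.70. RARS and RARS2, at -0.12, were the pair in the other direction. In OA against control the cytosolic change was above the mitochondrial in 12 of 16 pairs, with a median difference of 0.17 and 6 pairs apart by at least 1.2-fold. LARS and LARS2, at -0.34, were the pair that was apart by 1.2-fold in the other direction. The level of MARS per kb was 7.46 times that of MARS2 in control, 15.7 times in YA and 13.0 times in OA. The level of CARS was 0.986 times that of CARS2 in control and 1.60 times in YA. Each such ratio depends on the annotated exon lengths, but its change between libraries does not.

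**Figure D2:**
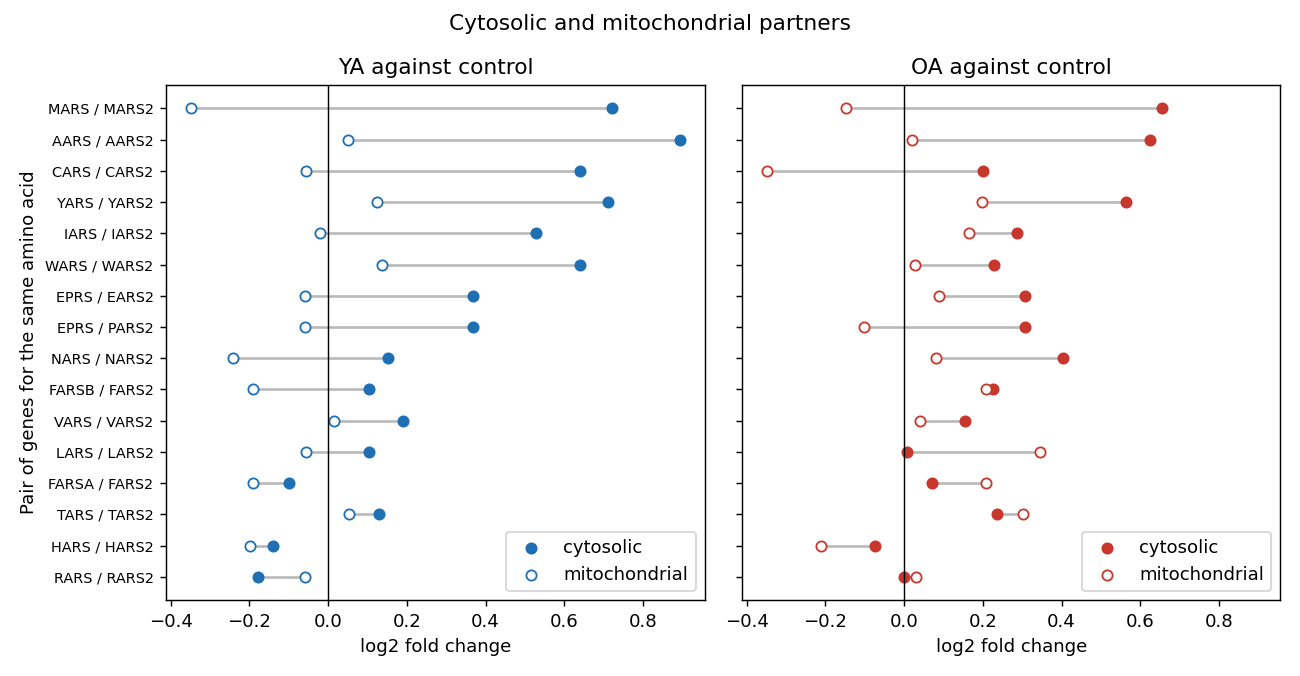
Log2 fold change of cytosolic (filled) and mitochondrial (open) synthetases for the same amino acid, in YA (left) and OA (right) against control, with 1 line per pair. In YA the filled point lies to the right in 15 of 16 pairs, by 1.07 for MARS and MARS2, and in OA in 12 of 16.

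Membership of the multisynthetase complex divided the cytosolic genes as follows. Of the 8 complex members (DARS, EPRS, IARS, KARS, LARS, MARS, QARS and RARS), 3 were at least 1.2-fold higher in YA, with a median log2 fold change of 0.07, and 3 were higher and 1 lower in OA, with a median of 0.01. Of the 12 outside it, 6 were higher in YA, with a median of 0.41, and 5 in OA, with a median of 0.23. Over all genes, 17.4% were higher in YA, 21.1% were higher in OA and 21.5% were lower in OA. The 3 scaffolds of the complex stayed within 1.2-fold of control in both secretomes. AIMP1 had 1057, 970 and 820 raw counts, 0.9205-fold of control in YA (0.843 to 1.005), AIMP2 708, 703 and 684, 0.996-fold (0.896 to 1.11), and EEF1E1 164, 156 and 139, 0.954-fold (0.761 to 1.195). By catalytic class, 5 of 9 class I genes and 3 of 10 class II genes were higher in YA, with medians of 0.53 and 0.12, and EPRS, which has a domain of each class, was counted apart. In OA, 3 of 9 and 4 of 10 were higher, and 1 class I gene, QARS, was lower. The shares of all genes given above for YA and OA are the background of these counts too.

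The promoter matches shown above can be read beside these changes. Of the 9 cytosolic genes with a promoter that were at least 1.2-fold higher in YA or OA, 6 held TGATGNAA (AARS, CARS, GARS, IARS, MARS and NARS) and EPRS, SARS and WARS did not. Of the 7 that were higher in neither, 1 held it (TARS), and FARSA, FARSB, HARS, KARS, QARS and RARS did not. The median log2 fold change in YA was 0.64 for the 7 genes with a match, from 0.13 to 0.89, and -0.02 for the 9 without, from -0.18 to 0.84. In OA the medians were 0.40 and 0.07. YARS, which was higher in both secretomes, had no promoter in the table.

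Genes of the ATF4 circuit were mostly higher in YA too, in a list chosen for comparison with earlier results of these data known. Of 20 tested, 14 were at least 1.2-fold higher in YA and 0 lower, with a median log2 fold change of 0.53, and 9 were higher and 2 lower in OA, with a median of 0.24. Among all genes, 17.4% were higher and 16.4% lower in YA, and 21.1% were higher and 21.5% lower in OA. ATF4 itself had 6784, 9475 and 7003 raw counts, 1.40-fold higher in YA (1.36 to 1.445) and 1.23-fold in OA (1.19 to 1.27). The kinase gene EIF2AK4, which encodes GCN2, had 4757, 4479 and 3889 and was at 0.944-fold in YA (0.906 to 0.984). DDIT3, which encodes CHOP, had 91, 156 and 107, 1.71-fold higher in YA (1.32 to 2.25). It shares 355 exon bases on the opposite strand with MARS, which had 4864, 8001 and 6428 raw counts. Reads of the pair cannot be told apart without strand, so the change of DDIT3 itself is uncertain. The largest changes were in NUPR1, a stress-induced transcriptional regulator at 8, 92 and 29 raw counts, and ATF3, a stress transcription factor at 1007, 3207 and 462, 3.19-fold higher in YA and 0.547-fold of control in OA. CHAC1, which degrades glutathione, had 211, 630 and 233, and TRIB3, a pseudokinase that restrains ATF4, had 1225, 3258 and 992.

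Amino acid synthesis genes, another list chosen with earlier results of these data known, moved mostly in the same direction as the cytosolic synthetases. Of 23 tested, 14 were higher and 2 lower in YA (median 0.46), and 11 were higher and 2 lower in OA (median 0.25). The shares of all genes were 17.4% higher and 16.4% lower in YA, and 21.1% higher and 21.5% lower in OA. ASNS, which makes asparagine, had 1008, 3881 and 2086 raw counts and was 3.86-fold higher in YA (3.602 to 4.14) and 2.46-fold in OA (2.29 to 2.66). CTH, which makes cysteine, had 258, 710 and 258, 2.75-fold higher in YA (2.39 to 3.195), and MTHFD2, of mitochondrial folate metabolism, had 2295, 4304 and 2839, 1.88-fold higher in YA (1.79 to 1.98). GLUL, which makes glutamine, was lower, with 418, 292 and 158 raw counts, 0.452-fold of control in OA (0.373 to 0.542).

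In the rest of the translation apparatus the list medians lay near 0. Beside the counts that follow, 17.4% of all genes were higher and 16.4% lower in YA, and 21.1% higher and 21.5% lower in OA. Of 41 tRNA maturation and export genes, 3 were higher and 1 lower in YA, with a median of -0.04, and 7 were higher and 1 lower in OA, with a median of 0.10. XPOT, which exports tRNA from the nucleus, was among the higher ones, with 8664, 11371 and 9005 raw counts, 1.32-fold in YA (1.28 to 1.35) and 1.24-fold in OA (1.202 to 1.275). ELAC2, which trims the tail of tRNA precursors, was 1.31-fold higher in OA (1.25 to 1.38). Of 22 cytosolic initiation factors, 3 were higher and 1 lower in YA (median -0.07) and 4 were higher and 1 lower in OA (median 0.08), and of 9 elongation and release factors 0 were past 1.2-fold in YA (median -0.06). In OA the elongation factors EEF1A1 and EEF2 were lower, at 0.759-fold (0.753 to 0.764) and 0.741-fold (0.733 to 0.748), and EIF5A and EEF1A2 were higher, at 1.34-fold (1.31 to 1.38) and 1.59-fold (1.47 to 1.73).

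Of 77 mitochondrial ribosomal protein genes, 0 were higher and 9 lower in YA (median -0.07), and 8 were higher and 3 lower in OA (median 0.05). The shares of all genes were 17.4% higher and 16.4% lower in YA, and 21.1% higher and 21.5% lower in OA. MRPS6 had 818, 482 and 806 raw counts, 0.5915-fold of control in YA (0.527 to 0.662), and MRPL36 and MRPL24 were 1.42-fold (1.25 to 1.605) and 1.36-fold higher (1.285 to 1.44) in OA. Of 10 mitochondrial translation factors, 0 were past 1.2-fold in YA and 2 were lower in OA, among them the release factor MTRF1 at 0.676-fold (0.559 to 0.814). The medians of both lists were close to those of the mitochondrial synthetases, at -0.06 in YA and 0.04 in OA. Of 17 endoplasmic reticulum chaperone genes, 2 were higher and 2 lower in YA (median -0.05), and 0 were higher and 3 lower in OA (median 0.02).

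**Figure D3:**
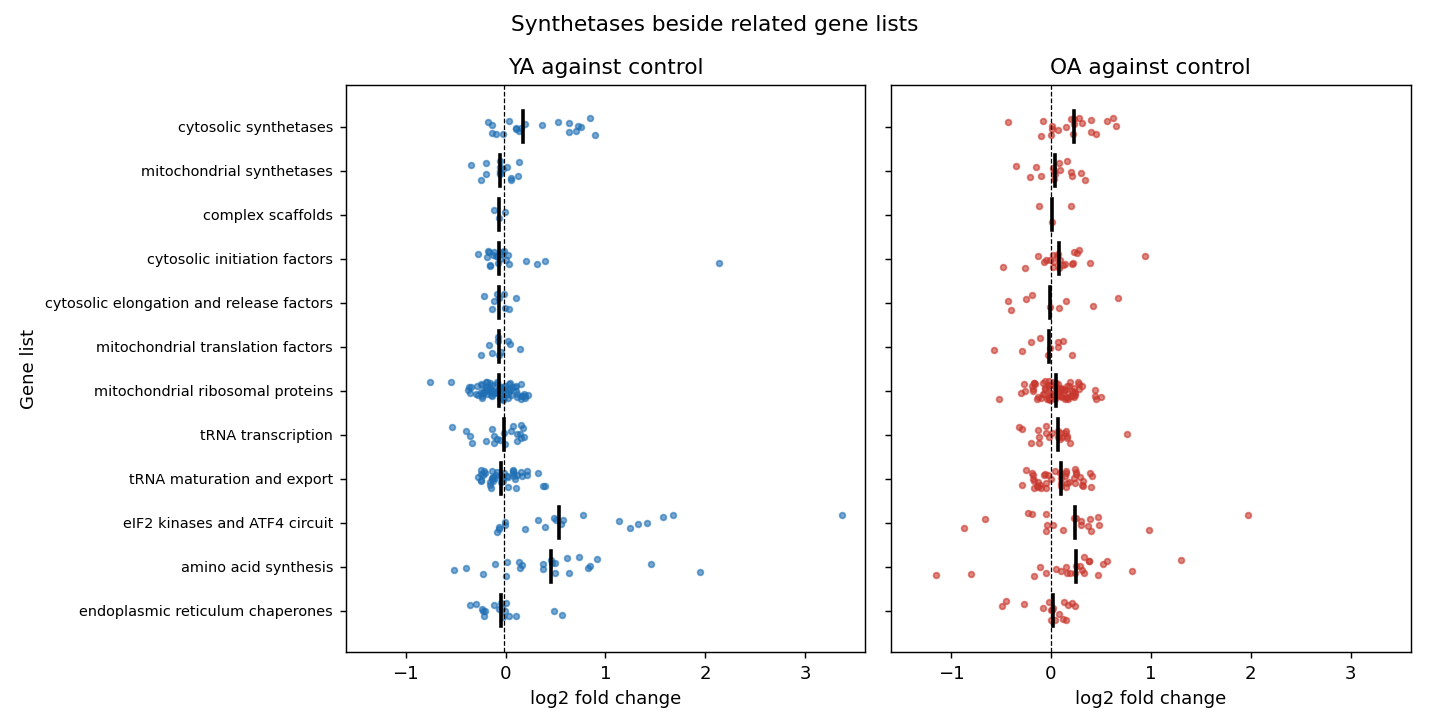
Log2 fold change in YA (left) and OA (right) against control of each tested gene in the synthetase groups and 10 related lists, with 1 point per gene, a bar for the list median and a dashed line for the median of all 14413 genes. The bars of the cytosolic synthetases (0.17 in YA), the ATF4 circuit (0.53) and amino acid synthesis (0.46) lie to the right, and those of the other translation lists lie near the dashed line.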

How the data were processed

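Poly(A) RNA sequencing of 3 libraries of A375 cells was analysed, grouped as control, YA and OA by the treatment given in the labels. The authors deposited raw counts per gene, and the submitters' processing notes name STAR 2.5.1b, featureCounts, R 3.6.1 and hg38. The use of strand in counting and the annotation release were not given in the sources used here, so reads of overlapping genes on either strand cannot be told apart. An exposure of 24 h is stated in the study's methods for sequencing, and the labels allow for a longer one.

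Normalised counts were obtained with the median-of-ratios size factors of DESeq2 1.42.0 in R 4.3.3. A pseudocount of 1 was added before each ratio was taken on the log2 scale. Genes whose normalised counts averaged 20 or more were kept, which left 14413 genes and 99.7% of counts. With 1 library per group no test was possible and no p-value was computed. Instead each fold change has a Clopper-Pearson interval (95%) based on both libraries' reads, and each share a 95% Wilson interval. Both cover counting error only, since no molecular identifiers mark reads amplified from 1 molecule. The study's cutoff of 1.2 was read as a linear fold. Total counts ran from 18089008 to 21448195, and the synthetases tested had 129 to 13203 counts. The intervals were checked on data simulated with counting error only, which is the error they assume. That check could not address variation between cultures or secretomes.

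Exon lengths and overlaps came from GENCODE 29 (GRCh38), and promoters from RefSeq (GRCh38.p14), matched by symbol or by the symbol with a final 1. Other steps used Python 3.11.15 with scipy 1.17.1, pandas 2.3.3 and numpy 2.4.6, and figures matplotlib 3.10.9. The members, the related lists and the motifs were chosen with earlier results of these data known. Fold changes with intervals were to be given for the 6 cytosolic genes furthest up and the 4 furthest down or nearest to no change in YA, the 4 mitochondrial genes furthest from no change in any comparison, GARS, KARS, WARS, HARS and HARS2, genes whose YA and OA changes lay on opposite sides of 1, and from the related lists ATF4, ASNS, DDIT3, EIF2AK4, AIMP1, AIMP2, EEF1E1, XPOT and up to 4 genes per list with an interval wholly beyond 1.2-fold. IARS, EPRS, NARS, TARS2 and ING1 were named after their values were seen. Alternatives were TMM scaling (edgeR 4.0.16), total-count scaling, a pseudocount of 5, no filter, a minimum mean of 100, a 1.5-fold threshold, intervals wholly beyond 1.2-fold, means in place of medians, leaving out GARS and KARS, and a correction on a 10 by 10 grid of transcript length and GC content, which was extended to single genes after seeing the data.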

Additional observations from a re-analysis of the deposited data

How the results depend on the processing

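The medians and the counts of genes at least 1.2-fold higher, 12 results over the cytosolic and mitochondrial groups, kept their direction and each count stayed the same under TMM scaling, total-count scaling, a pseudocount of 5 and a minimum mean of 100. The grid correction took the cytosolic count from 8 to 9 in OA and from 6 to 5 in YA against OA, and leaving out GARS and KARS took 1 gene, GARS, from each cytosolic count. Without a filter, SARS2 entered and the mitochondrial genes at least 1.2-fold higher became 1 in YA against control and 2 in YA against OA. The mean of the cytosolic log2 fold changes in YA was 0.31, above the median of 0.17. At 1.5-fold, the number higher in OA fell to 2 cytosolic and 0 mitochondrial genes, and in YA against OA to 0 and 0. Counting only intervals wholly beyond 1.2-fold left 0 mitochondrial genes higher in OA and 0 in YA against OA, and took the cytosolic counts from 8 to 7 and from 6 to 4. Among 105 fold changes of single genes, 0 moved beyond their counting interval under TMM, total-count scaling or a pseudocount of 5, and 23 did under the grid correction. Under it, 3 crossed 1.2-fold, CARS in OA (log2 0.20 to 0.26), AARS in YA against OA (0.27 to 0.20) and TARS2 in YA against OA (-0.25 to -0.32), and FARSA in OA went from 0.07 to -0.01. KARS in YA was at 0.05 under it. No paired analysis was possible because each group held 1 library. With 1 library per group, leaving out a library was not possible, and variation between cultures, secretome batches and donors could not be measured.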

Other observations

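Enzymes that handle special tRNAs stayed mostly within 1.2-fold of control. As background, 17.4% of all genes were higher and 16.4% lower in YA, and 21.1% were higher and 21.5% lower in OA. Of 6 selenocysteine tRNA enzymes, 1 was at least 1.2-fold higher in YA (PSTK, which phosphorylates the seryl-tRNA, with 80, 115 and 74 raw counts in control, YA and OA) and 1 in OA (EEFSEC, the selenocysteine elongation factor, with 331, 394 and 343). Of 4 genes of mitochondrial transamidation and formylation, which complete the charging of the glutamine and initiator tRNAs, 0 were past 1.2-fold in either direction in YA or OA. Of 4 editing and synthetase-like genes tested, 1 was lower in YA, TARSL2, a second cytosolic threonine enzyme with 233, 189 and 169 raw counts. TARSL2 was at 0.814-fold of control in YA (0.668 to 0.990), an interval that also reached inside 1.2-fold. These genes were singled out after their values were seen.

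Of 21 genes of tRNA transcription by RNA polymerase III, 0 were higher and 4 lower in YA, and 1 was higher and 2 lower in OA. Beside these, 17.4% of all genes were higher and 16.4% lower in YA, and 21.1% higher and 21.5% lower in OA. POLR3G, a subunit of the alternative form of the enzyme, had 1029, 898 and 1463 and was 1.69-fold higher in OA (1.56 to 1.84).

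GARS-DT, a noncoding transcript that starts beside GARS on the opposite strand and shares 99 exon bases with it, had 201, 387 and 130 raw counts. It was 1.93-fold of control in YA (1.62 to 2.30) and 0.772-fold in OA (0.613 to 0.965), while GARS was above control in both. EIF4A1, an initiation factor, had 74, 328 and 120 raw counts and was 4.40-fold higher in YA (3.445 to 5.80). It shares 41.1% and 29.8% of its exon bases with 2 other genes on the same strand, so its own level is uncertain. GARS-DT and the overlap of EIF4A1 were looked at after their values were seen.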
